A study of Mus musculus with 2 samples.

Results

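Enzymes that make serine, asparagine, proline and cysteine, together with 2 aminotransferases that supply and draw on the same intermediates, were examined in mouse embryonic stem cells (ESCs) with and without an alanine change at threonine 258 of Sox2. The set held 10 genes, taken by gene symbol with no threshold on a measured value: Phgdh, Psat1 and Psph of serine synthesis, Asns of asparagine synthesis, Pycr1 and Aldh18a1 of proline synthesis, Cth and Cbs of transsulfuration, and the aminotransferases Got1 and Gpt2. All 10 were found among the 24532 genes of the deposited table, each as 1 row, and all 10 reached the level at which genes were compared (9094 genes had an expression level of 10 TPM or more in either library, TPM being read counts scaled to transcript length and then to a common library sum).

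Polyadenylated RNA of cells of 2 genotypes was sequenced, with 1 library each. E14 is an established mouse ESC line, grown here in medium with serum and leukemia inhibitory factor (LIF). E14-Sox2 TA/WT cells, called mutant cells here, were expanded from single edited cells of this line, and the number of clones sequenced is not stated. In 1 allele Sox2 was changed to T258A by CRISPR/Cas9 cutting and repair from a single-stranded donor oligonucleotide. The other allele was wild type. Clones had been selected and kept in serum and LIF with 2i, the Mek inhibitor PD0325901 and the Gsk3 inhibitor CHIR99021, which were withdrawn some passages before use. The comparison addresses gene expression when 1 allele of Sox2 cannot take O-GlcNAc, a sugar on serine or threonine, at this residue, and genotype, clone and culture history cannot be told apart in it. With 1 library per genotype there is no replicate against which a difference could be tested, so p-values are absent, and the 95% intervals beside log2 ratios cover the counting of reads only. In bulk RNA, fewer cells that express a gene and less RNA per cell cannot be told apart either.

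The libraries held 60263536 reads counted in genes for E14 and 44609228 for mutant cells, and each gene of the set had at least 1641 reads in each. Of 8 ESC markers all reached 10 TPM, and their summed level was 12109 TPM in E14 and 9073 TPM in mutant cells. Dppa5a was the largest part of both sums (6877 and 4429 TPM). By log2 ratio of TPM 5 markers were below 0, while Pou5f1 (0.03), Esrrb (0.10) and Utf1 (0.24) were above it. Nanog was the marker that differed by more than 2-fold (527 and 251 TPM). Sox2 itself was at 373 and 274 TPM, and a count per gene does not show which allele a read came from. Markers of fibroblasts summed to 49.5 and 18.2 TPM over 8 genes, with Dcn, Lum and Postn at 0 reads in both libraries. Most of these sums came from Thy1 (40.1 and 11.4 TPM), while the collagen genes, all under 3 TPM, were higher in mutant cells, with 15 and 151 reads for Col3a1, 43 and 109 for Col1a2, and 2.66 and 2.95 TPM for Col1a1. Those of primitive endoderm summed to 46.2 and 17.1 TPM over 6 genes, each of them lower in mutant cells and none at 0 reads. Among these, Thy1 (log2 ratio of -1.81) and Gata4 (-1.98) passed the level filter and differed by more than 2-fold. Gata4 (15.0 and 3.80 TPM) passed the filter through E14 alone. The part of these marker differences in the values below was not tested.

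Serine is made from the glycolytic intermediate 3-phosphoglycerate in a chain of reactions by a dehydrogenase (Phgdh), an aminotransferase (Psat1) and a phosphatase (Psph), and it feeds glycine, one-carbon units and, through transsulfuration, cysteine. Asparagine is made from aspartate with nitrogen from glutamine by Asns, and proline is made from glutamate by Aldh18a1 and then the Pycr reductases. Many of these genes are known targets of Atf4, a transcription factor that is translated more when cells lack amino acids or are otherwise stressed, and that binds C/EBP-Atf response elements together with C/EBP proteins.

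Of the 10 enzymes, 3 had a TPM more than 2-fold lower in mutant cells than in E14 (Cth, Asns and Psph) and none was more than 2-fold higher. The background was 4.07% of all tested genes past 2-fold on the lower side (370 genes) and 4.17% on the higher side (379 genes). Within the range of mean TPM that the 10 enzymes span, 38.3 to 671 TPM, the background was 2.27% lower and 2.95% higher of 4105 genes. A counting interval wholly past 2-fold was found for Asns and Cth on the lower side (background 3.12% of genes) and for none on the higher side (3.23%). At a threshold of 1.5-fold, Aldh18a1 and Gpt2 joined the other 3, which made 5 of 10 lower against a background of 10.5%, and none was higher (14.2%). The ratio was below 1 for 9 of 10 enzymes (42.7% of all tested genes) and above it for 1 (57.3%). The interval lay below no change for 9 of 10 enzymes, as it did for 35.2% of all tested genes, and above it for Got1, as for 50.2% of all tested genes. The log2 ratio of TPM had a median of -0.69 over the 10 enzymes, with a range from -1.69 to 0.10, beside a median of 0.08 over all tested genes. These counts describe the set and are no test of it.

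**Figure D1:**
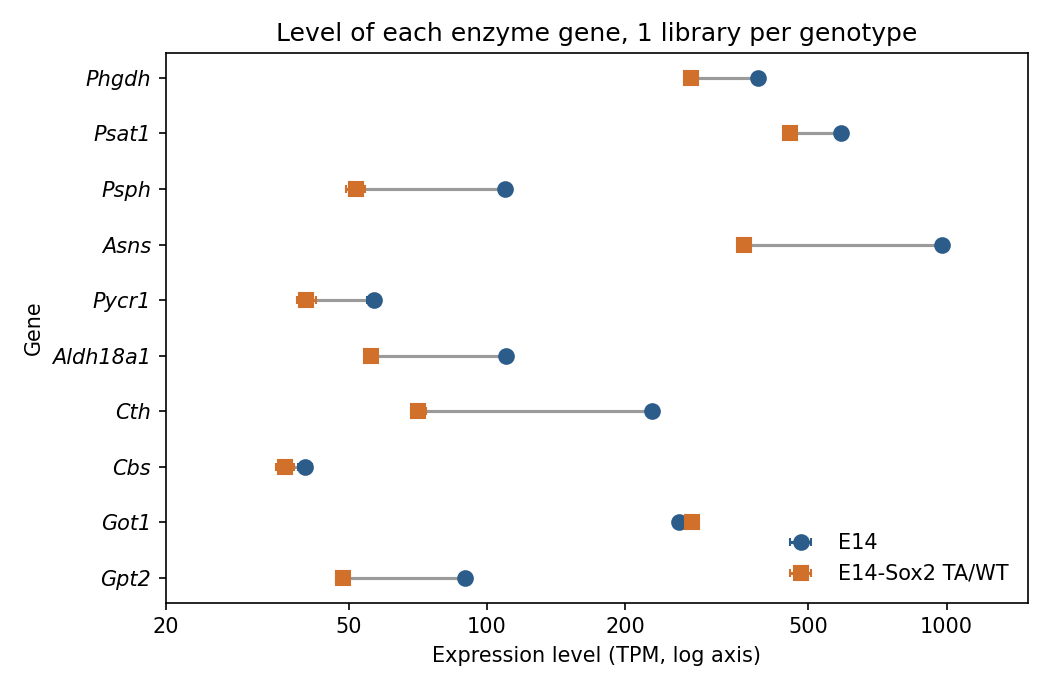
TPM (log axis) of each of the 10 enzymes, 1 library per genotype, circles for E14 and squares for E14-Sox2 TA/WT, with 95% counting intervals, most of them smaller than the symbols. Asns stands highest in E14 at 979 TPM and falls below Psat1 in the mutant, whereas the points of Got1 (262 and 280.02 TPM) and Cbs (40.2 and 36.4 TPM) nearly coincide.

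The unit of the values matters for the smaller differences. On the deposited FPKM scale the median ratio of all genes was lower by 0.14 (log2) than on the TPM scale, so that 496 genes were more than 2-fold lower and 278 more than 2-fold higher, and the split of 370 and 379 above was on the TPM scale. The median of all tested genes was then -0.06 in place of 0.08. On the FPKM scale 5 of the 10 enzymes were more than 2-fold lower (Asns, Cth, Psph, Aldh18a1 and Gpt2), against a background of 5.45% of genes, and none was higher (3.06%).

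Asns, the glutamine-dependent asparagine synthetase, was the most abundant of the enzymes in E14. It had 59443 reads and 979 TPM in E14, and 14771 reads and 363 TPM in mutant cells. Its TPM was thus 2.70-fold lower (log2 ratio of -1.43, 95% counting interval -1.46 to -1.41), a value reached by 1.95% of the tested genes. Asns alone made up 34.3% of the summed TPM of the 10 enzymes in E14 and 21.6% in mutant cells, and 52.6% of the drop in that sum came from it. The gene has 12 exons and lies on the minus strand at chr6:7675165-7693209 (GRCm38). The 5 tested genes within 1 Mb of it had log2 ratios between -0.68 and 0.15, so none was as low as Asns.

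Promoter windows from RefSeq (GRCm38.p6, 250 bases before to 50 after a transcript start) were found for 9 of the 10 genes, the exception being Cth, and were searched on both strands for TGATGNAA, the core letters of a C/EBP-Atf response element. The letters occur once each in the windows of Asns, Pycr1 and Got1, that is in 3 of 10 windows (Psat1 has 2), beside 3.97% of all 32851 mouse windows and 1.96% of the 9309 windows of tested genes. The window of Asns is shown first because Asns carried most of the summed difference. It covers chr6:7693160-7693459 on the minus strand, and the capitals mark the motif, 23 to 16 bases upstream of the RefSeq start.
Asns: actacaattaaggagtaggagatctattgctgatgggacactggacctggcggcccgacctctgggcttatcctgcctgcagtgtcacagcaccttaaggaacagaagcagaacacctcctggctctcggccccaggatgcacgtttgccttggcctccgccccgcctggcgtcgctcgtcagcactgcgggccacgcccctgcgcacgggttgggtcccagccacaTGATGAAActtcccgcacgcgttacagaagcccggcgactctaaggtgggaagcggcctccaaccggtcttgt
The windows of Pycr1 and Got1 are set beside it because they hold the same letters in genes with smaller differences. That of Pycr1 covers chr11:120643699-120643998 on the minus strand, with the motif in capitals 103 to 96 bases upstream of the start.
Pycr1: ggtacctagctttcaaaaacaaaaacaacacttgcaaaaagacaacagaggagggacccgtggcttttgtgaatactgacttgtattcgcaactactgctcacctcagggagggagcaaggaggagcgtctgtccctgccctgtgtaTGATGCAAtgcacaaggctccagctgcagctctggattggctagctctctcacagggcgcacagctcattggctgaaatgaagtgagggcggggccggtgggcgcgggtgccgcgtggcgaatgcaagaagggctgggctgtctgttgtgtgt
That of Got1 covers chr19:43524556-43524855 on the minus strand. Its motif lies on the opposite strand, 102 to 95 bases upstream, so the capitals read TTGCATCA, the reverse complement of TGATGCAA.
Got1: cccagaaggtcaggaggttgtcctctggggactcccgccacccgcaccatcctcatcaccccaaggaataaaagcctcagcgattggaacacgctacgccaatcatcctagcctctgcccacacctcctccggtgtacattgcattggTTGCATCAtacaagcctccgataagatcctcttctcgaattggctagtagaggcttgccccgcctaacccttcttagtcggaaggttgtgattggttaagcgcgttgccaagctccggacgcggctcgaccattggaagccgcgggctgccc
The 3 genes with the letters had log2 ratios of TPM of -1.43 (Asns), -0.49 (Pycr1) and 0.10 (Got1). Psph, Aldh18a1 and Gpt2, with lower ratios than Pycr1, had no such letters in their windows, which says nothing of sequence outside the windows. A match of letters is a description and not a bound site.

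The serine branch was lower at each step, and by the most at the last. Phgdh, the dehydrogenase that commits 3-phosphoglycerate to serine, had 22932 reads and 389 TPM in E14 and 11001 reads and 279 TPM in mutant cells. Its TPM was 1.40-fold lower, with a log2 ratio of -0.48 (-0.52 to -0.45). Psat1, the phosphoserine aminotransferase, had 40407 reads and 591 TPM in E14 and 20974 reads and 457 TPM in mutant cells. That was a difference of 1.29-fold, with a log2 ratio of -0.37 (-0.39 to -0.34). Neither was past 1.5-fold, and 13.4% and 17.6% of the tested genes, respectively, had a ratio as low or lower.

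Psph, the phosphoserine phosphatase of the last step, had 5309 reads and 109.7 TPM in E14 and 1684 reads and 51.9 TPM in mutant cells. It was 2.11-fold lower, with a log2 ratio of -1.08 and a counting interval from -1.16 up to the 2-fold line, and 3.55% of the tested genes were as low. Psph was thus the enzyme just inside that line. The ratio of Phgdh to Psph in TPM was 3.55 in E14 and 5.37 in mutant cells, and that of Psat1 to Psph was 5.39 and 8.81, whereas Psat1 over Phgdh stayed at 1.52 and 1.64. Summed over the 3 genes, the branch stood at 1089 TPM in E14 and 788 TPM in mutant cells, 27.7% lower.

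The counts of 2 serine genes are uncertain, since the treatment of strand and of reads that match several genes is not given in the sources used here. Phgdh shares stretches of at least 100 bases at 95% identity or more with 11 other genes of the GENCODE annotation, 7 of them over 1594 to 1608 bases at identities of 95.33% to 98.75%. Of these 11, Vmn2r-ps54 alone was in the deposited table, at 0 reads in both libraries. Psph overlaps the start of Cct6a, a chaperonin subunit gene on the opposite strand, with 452 shared exonic bases in the GENCODE annotation and 88 bases of the gene bodies in RefSeq. Cct6a had 43996 and 34734 reads (643 and 758 TPM), more than Psph in either library and with a log2 ratio of the opposite sign (0.24). No stretch of this kind was found for the other 8 enzymes. Phgdh has 12 exons at chr3:98313171-98339969, Psat1 has 9 at chr19:15905123-15925059 and Psph has 8 at chr5:129765558-129787443 (GRCm38).

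Both enzymes of proline synthesis were lower, the upstream one by more. Aldh18a1, the bifunctional pyrroline-5-carboxylate synthase that acts on glutamate, had 12203 reads and 109.9 TPM in E14 and 4158 reads and 55.9 TPM in mutant cells. This was 1.97-fold lower, with a log2 ratio of -0.98 (-1.03 to -0.92), just outside the 2-fold line on the TPM scale. Pycr1, the mitochondrial reductase of the last step, had 3475 and 1641 reads, or 56.7 and 40.5 TPM. It was 1.40-fold lower, with a log2 ratio of -0.49 (-0.57 to -0.40). The ratio of Aldh18a1 to Pycr1 in TPM was 1.94 in E14 and 1.38 in mutant cells, and the summed level of the pair was 167 and 96.3 TPM, 42.2% lower.

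Pycrl, the cytosolic paralog of Pycr1 now called Pycr3, was at 63.5 TPM in E14 and 67.1 TPM in mutant cells, with a log2 ratio of 0.08 (-0.01 to 0.16) that turns negative with the shift of 0.14 on the FPKM scale. Aldh18a1 lies at chr19:40550257-40588463 with 19 exons, and Pycr1 at chr11:120638998-120643748 with 8 exons (GRCm38).

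The enzymes of transsulfuration, which moves the sulfur of homocysteine to cysteine, parted from each other. Cth, the cystathionine gamma-lyase that releases cysteine, had 12955 reads and 228 TPM in E14 and 2696 reads and 70.9 TPM in mutant cells. At 3.22-fold lower, with a log2 ratio of -1.69 (-1.75 to -1.63), it had the lowest ratio of the 10 enzymes, and 1.29% of the tested genes were as low. Cbs, the synthase that joins homocysteine to serine one step earlier, had 3132 reads and 40.2 TPM in E14 and 1902 reads and 36.4 TPM in mutant cells. Its log2 ratio was -0.14 (-0.23 to -0.06), a TPM 9.45% lower, and 31.4% of the tested genes were as low. Once the dependence of ratios on GC content and length was taken out, the log2 ratio of Cbs changed sign to 0.09.

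The ratio of Cth to Cbs in TPM was 5.68 in E14 and 1.95 in mutant cells. Since Cth made up most of the pair, their summed level was 269 and 107 TPM, 60.0% lower. Cth has 12 exons at chr3:157894248-157925081, and Cbs has 17 at chr17:31612623-31637233 (GRCm38). Their intervals of the ratio did not overlap, but how far the ratios of 2 genes vary between cultures of 1 genotype was not measured.

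The aminotransferases parted in the same way. Gpt2, the mitochondrial alanine aminotransferase that makes alpha-ketoglutarate from glutamate and pyruvate, had 10166 reads and 89.8 TPM in E14 and 3683 reads and 48.5 TPM in mutant cells. It was 1.85-fold lower, with a log2 ratio of -0.89 (-0.94 to -0.83). Got1, the cytosolic aspartate aminotransferase, had 16967 and 12156 reads, or 262 and 280.02 TPM. Its log2 ratio was 0.10 (0.06 to 0.13) on the TPM scale and -0.05 on the FPKM scale, near the median of all tested genes on either. Summed, the pair was at 352 and 329 TPM, 6.57% lower.

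The mitochondrial counterpart of Got1 and the cytosolic counterpart of Gpt2 were not lower. Got2 was at 283 TPM in E14 and 369 TPM in mutant cells, with a log2 ratio of 0.38 (0.35 to 0.41). Gpt was low in both, at 7.46 and 10.4 TPM, with a log2 ratio of 0.48 (0.27 to 0.68). Gpt2 was therefore the more abundant alanine aminotransferase in both libraries. Got1 has 9 exons at chr19:43499752-43524605, and Gpt2 has 12 at chr8:85492576-85528902 (GRCm38).

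**Figure D2:**
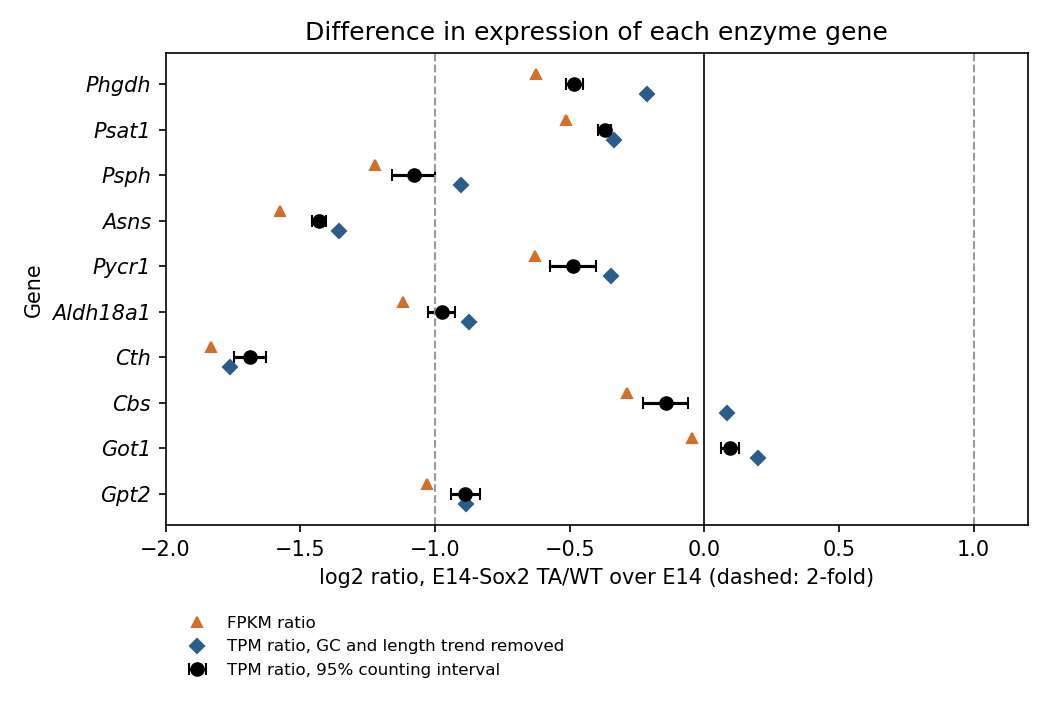
Log2 ratio (E14-Sox2 TA/WT over E14) of each enzyme, 1 library per genotype, as TPM ratio with its 95% counting interval (black circles), as FPKM ratio (triangles) and as TPM ratio with the trend on GC and length removed (diamonds). On the TPM scale Cth (-1.69), Asns (-1.43) and Psph (-1.08) lie past the 2-fold line, Aldh18a1 (-0.98) lies just short of it, and Got1 (0.10) alone lies above 0, where Cbs joins it (0.09) without the trend.

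The order of the enzymes by level per length was mostly kept. In E14 it ran from Asns through Psat1, Phgdh, Got1, Cth, Aldh18a1, Psph, Gpt2 and Pycr1 to Cbs, and the counting intervals of neighbours overlapped for Aldh18a1 and Psph alone. In mutant cells Psat1 stood first, followed by Asns, Got1, Phgdh, Cth, Aldh18a1, Psph, Gpt2, Pycr1 and Cbs. There the intervals overlapped between Got1 and Phgdh, between Aldh18a1 and Psph and between Psph and Gpt2. The ratio of Psat1 to Asns in TPM was 0.603 in E14 and 1.26 in mutant cells, and that of Asns to Got1 was 3.74 and 1.30. All 10 enzymes summed to 2856 TPM in E14 and 1683 TPM in mutant cells, 41.1% lower.

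**Figure D3:**
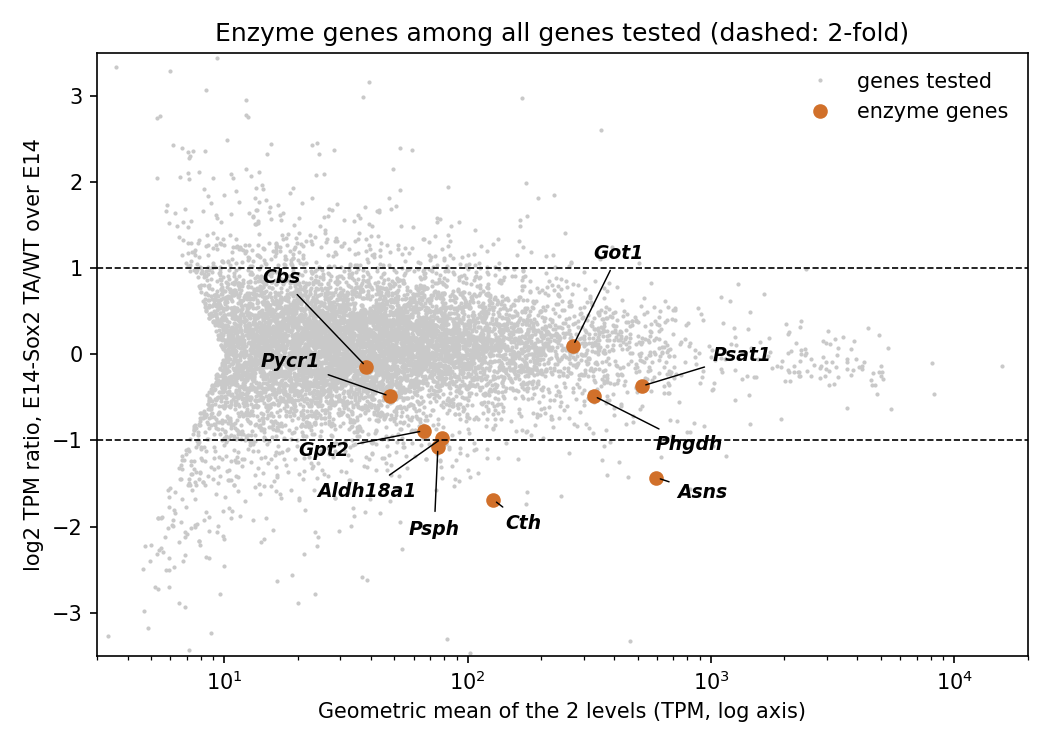
Log2 ratio of TPM (E14-Sox2 TA/WT over E14) against the geometric mean of both levels (TPM, log axis) for 9067 tested genes, 1 point per gene, with the 10 enzymes named and dashed lines at 2-fold. Of the enzymes, 9 lie below 0 and Cth, Asns and Psph lie past the lower line. The 25 genes beyond 3.5 on either side and 2 genes listed at 0 in 1 library are not drawn.

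Genes of neighbouring reactions lay on both sides of no change. Of 30 genes of neighbouring reactions and paralogs, 29 were in the table and 22 were tested, of which 2 were more than 2-fold lower (4.07% of all tested genes) and 1 was more than 2-fold higher (4.17%). The remaining 19 lay between, 11 of the 22 log2 ratios were below 0 (42.7% of all tested genes), and the median log2 ratio was 0.03, which turns negative with the shift on the FPKM scale. Got1l1, a paralog of Got1, was at 82.4 TPM (3522 reads) in E14 and 23.0 TPM (658 reads) in mutant cells, with a log2 ratio of -1.84 (-1.96 to -1.72). Cdo1, the dioxygenase that starts the breakdown of cysteine, was at 15.4 and 6.75 TPM, with a log2 ratio of -1.19 (-1.41 to -0.97). It passed the level filter through E14 alone. Mat2a, which makes S-adenosylmethionine from methionine, was at 141 and 312 TPM, with a log2 ratio of 1.14 (1.11 to 1.18).

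Among enzymes of one-carbon and glycine metabolism, which use the serine that the branch above makes, 16 of 19 were tested. None was more than 2-fold lower (4.07% of all tested genes) and 1 was more than 2-fold higher (4.17%), and the median log2 ratio was 0.04 (negative on the FPKM scale), with 8 ratios on each side of 0. The 1 past the line was Tdh, the threonine dehydrogenase on which mouse ESCs are known to rely for glycine, at 350.3 TPM in E14 and 732 TPM in mutant cells, with a log2 ratio of 1.06 (1.04 to 1.09).

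Listed genes of the amino acid response, which hold regulators such as Atf4 and genes that the response induces, were more often lower than higher. Of 24 genes 23 were tested, 15 with a ratio below 1 (42.7% of all tested genes). Past 2-fold, 9 were lower (4.07%) and 1 was higher (4.17%), with 13 between, and the median log2 ratio was -0.35. Of the 9, Cebpb (15.3 and 3.90 TPM) and Atf3 (14.8 and 5.98 TPM) reached 10 TPM in E14 alone. They thus passed the filter only through the library where they were higher. The 8 with a ratio above 1 were Myc, Impact (log2 ratio of 0.69), Gcn1l1 (0.50), Eif2ak1 (0.45), Eif2ak4 (0.24), Eif2s1 (0.22), Eif2ak2 (0.13) and Ppp1r15b (0.06). The values of Eif2ak2 and Ppp1r15b turn negative with the shift of 0.14 on the FPKM scale. Atf4 was at 748 TPM (40468 reads) in E14 and 279 TPM (10144 reads) in mutant cells, with a log2 ratio of -1.42 (-1.45 to -1.39). The ratios of the enzymes ran from -1.69 (Cth) to 0.10 (Got1), and a relation of Atf4 to them was not tested. The value of Atf4 is a level of RNA, while Atf4 is known to be set in large part by translation, which RNA levels do not show.

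Of the listed genes past 2-fold, several that Atf4 is known to activate under stress had a lower ratio than Atf4 itself. Ddit3, which encodes the stress factor Chop, was at 95.2 and 15.5 TPM (log2 ratio of -2.62). Trib3, a pseudokinase that restrains Atf4, was at 118 and 24.6 TPM (-2.26), and Chac1, an enzyme that breaks down glutathione, at 89.9 and 15.0 TPM (-2.58). Nupr1, a small stress-induced nuclear protein gene, was at 342 and 30.8 TPM (-3.47), and Ddit4, an inhibitor of mTORC1, at 318 and 95.2 TPM (-1.74). The transcription factor genes Cebpb (-1.97), Atf3 (-1.31) and Atf5 (-1.05) were also past the line. Other tested genes of the list were below 0 but within 2-fold, and so lowered less than Atf4 (-1.42). They were Eif4ebp1 (-0.80), Cebpg (-0.66), Ppp1r15a (-0.35), Sesn2 (-0.26), Nfe2l2 (-0.21) and Eif2ak3 (-0.15). Myc was the 1 gene of this list more than 2-fold higher, at 27.1 and 101.9 TPM, with a log2 ratio of 1.91 (1.84 to 1.99). With 1 ratio per gene, no correlation between regulators and enzymes can be computed across samples.

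**Figure D4:**
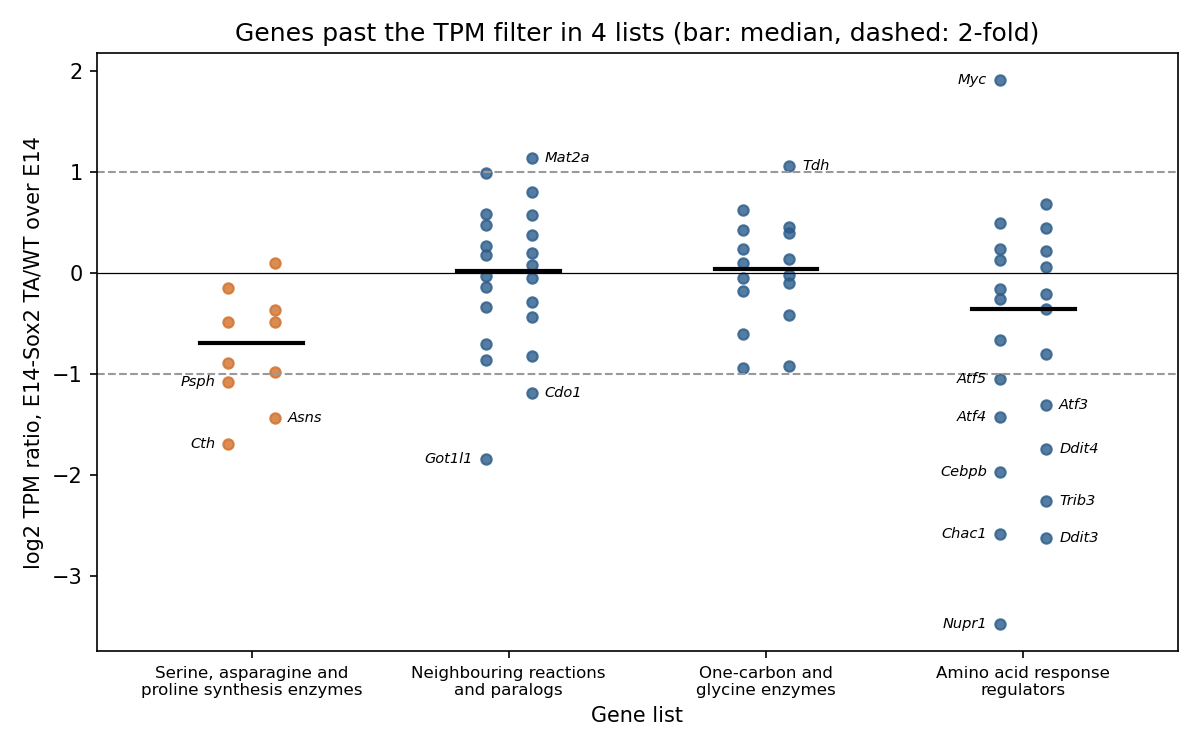
Log2 ratio of TPM (E14-Sox2 TA/WT over E14) of each tested gene in 4 lists, 1 point per gene. The lists are the 10 enzymes, 22 genes of neighbouring reactions and paralogs, 16 one-carbon and glycine enzymes and 23 amino acid response genes. Bars mark the median of each list and dashed lines mark 2-fold. The medians are -0.69, 0.03, 0.04 and -0.35, and the median of all tested genes is 0.08.

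The enzymes lie on 7 chromosomes, whose medians over tested genes ran from 0.02 (chromosome 17, Cbs) to 0.28 (chromosome 8, Gpt2). Tested genes within 1000000 bases of the gene on either side were taken as neighbours. Psat1 (2 neighbours, 0.12 and 0.19), Psph (19, lowest -0.67), Asns (5, lowest -0.68), Aldh18a1 (4, lowest 0.25) and Cth (4, lowest -0.07) had lower ratios than each of their neighbours. Phgdh and Gpt2 each had 1 neighbour with a ratio as low, of 4 and 30 neighbours. Pycr1 had 3 of 44, whereas Cbs had 8 of 17 and Got1 had 8 of 13. How many of all tested genes lie lower than each of their neighbours was not counted. A gene with few neighbours, such as Psat1 with 2, is more easily the lowest, so these counts are description only. Psat1, Aldh18a1 and Got1 share chromosome 19, and Phgdh and Cth share chromosome 3, but no pair lay within 1000000 bases of each other. For Gpt2, whose chromosome had the highest median of the 7, the log2 ratio was -1.17 after the chromosome median was subtracted.

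**Figure D5:**
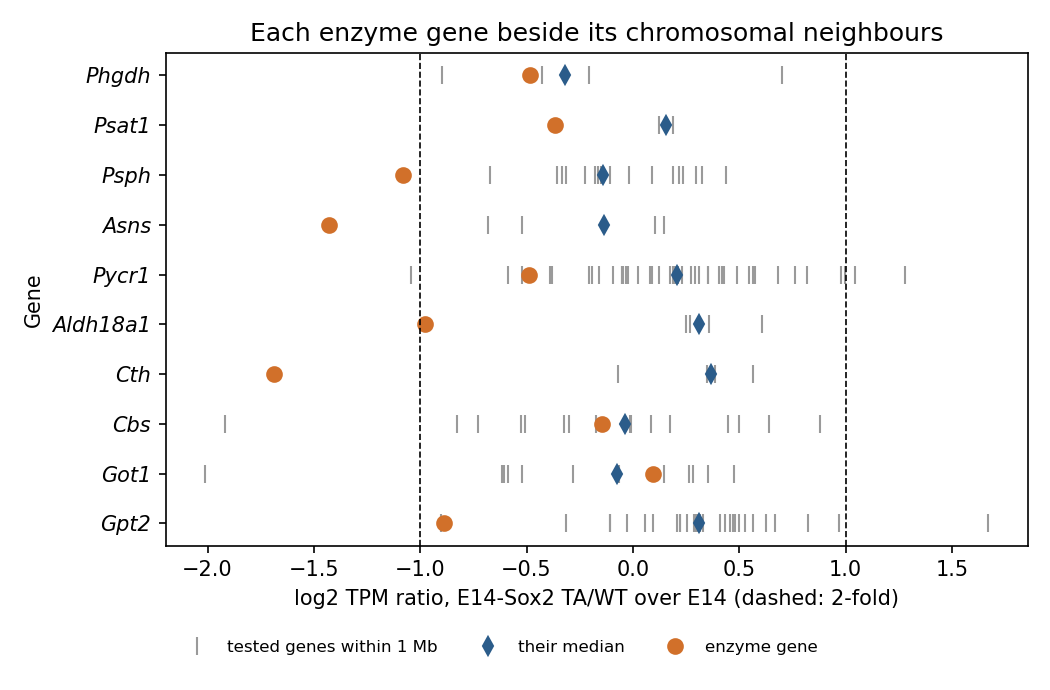
Log2 ratio of TPM (E14-Sox2 TA/WT over E14) of each enzyme (circle) and of the tested genes within 1 Mb of it (ticks, with a diamond at their median), 1 row per enzyme, dashed lines at 2-fold. Asns (-1.43), Cth (-1.69), Psph (-1.08), Aldh18a1 (-0.98) and Psat1 (-0.37) lie below every neighbour drawn, while Cbs (-0.14) and Got1 (0.10) lie among theirs.

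Settings of scale and centring were compared for each enzyme over 9 of them. The log2 ratio of Asns ranged from -1.57 to -1.36 and that of Cth from -1.83 to -1.67, past 2-fold in all 9. Psph was past 2-fold in 8 of 9, with -0.90 when that dependence was taken out, Aldh18a1 in 6 of 9 (-1.12 to -0.87) and Gpt2 in 3 of 9 (-1.17 to -0.87). Phgdh (-0.63 to -0.21), Psat1 (-0.51 to -0.33) and Pycr1 (-0.65 to -0.35) were below 0 in all 9 and past 2-fold in none. Cbs was below 0 in 8 of 9 (-0.29 to 0.09), and Got1 in 2 of 9 (-0.05 to 0.20).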

How the data were processed

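The data are RNA-seq of polyadenylated RNA, read on a NovaSeq instrument, with 1 library of E14 and 1 of E14-Sox2 TA/WT cells. The authors deposited 1 gene table for mm10 (GRCm38) with Entrez gene IDs. Its read counts, as deposited, are whole and not normalized. FPKM values were deposited scaled to length and fragments, and TPM values, also made by the authors, are scaled to a library sum (993247 and 994155). The processing notes of the submitters name bcl2fastq 2.20.0, Trimmomatic, HISAT2 2.1.0 and StringTie 2.1.3b, and both mm10 and hg19. Handling of strand and of multi-mapping reads is not given in the sources used here. TPM was 1.94 times FPKM in E14 and 2.15 times in E14-Sox2 TA/WT cells.

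The filter of 10 TPM in either library and the 2-fold threshold were those of the methods of the study. Those methods do not state the scale of the fold change or a pseudocount. Ratios of TPM without a pseudocount were used here, and the counts of genes past 2-fold differ from those the study reported. The 95% intervals came from the counts (scipy 1.17.1), as Clopper-Pearson intervals for ratios and exact Poisson intervals for levels. They cover counting error only, since each genotype had 1 library. They may be too narrow even for that, since PCR reads are not independent molecules. A count of 0 allows up to 3 reads (0.0498 and 0.0673 CPM, counts scaled to the library total, in E14 and E14-Sox2 TA/WT cells). The scripts (Python 3.11.15) were tested on simulated data.

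The members and lists were chosen with earlier results of these data known. Named were all members, Atf4, Sox2, the paralogs of members, and list genes past 2-fold, with further list genes added after their values were seen. Single values of some list genes are not reported here. Pycr3 is listed as Pycrl. Gene positions came from RefSeq, copies and overlaps from GENCODE transcripts (BLAST+ 2.17.0+), and promoter windows from RefSeq. Alternatives were other filters (1 and 20 TPM, or none), a pseudocount of 1, folds of 1.5 and 3, and a threshold on the interval. Other scales were FPKM, CPM, TMM (edgeR 4.0.16), median of ratios (DESeq2 1.42.0) and centring on the all-gene median. The dependence on GC content and length was also subtracted, for the 24074 genes with a transcript. It was taken from medians of 20 bins each, over such genes with at least 1 TPM in both libraries, first for GC and then for length. Centring on chromosome medians was chosen after seeing the data.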

Additional observations from a re-analysis of the deposited data

How the results depend on the processing

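Of 64 recomputed counts and medians (members and all genes past 2-fold, and the median of the enzymes), 45 stayed within the margin set for them and 19 moved. The margin was a factor of 1.5 for counts, and for the median the middle of the enzymes' counting interval bounds. Other level filters could not change the counts of enzymes, since each enzyme was above 20 TPM in both libraries. No enzyme was past the threshold on the higher side in any setting. The median of the enzymes stayed below 0. Of single enzymes, Got1 changed sign with FPKM and with CPM (-0.05 in both), and Cbs with the trend on GC content and length removed (0.09). The count of 3 enzymes more than 2-fold lower became 5 with FPKM, with CPM and with a 1.5-fold threshold, and 1 with a 3-fold threshold. It also became 5 with centring on chromosome medians (an alternative chosen after seeing the data). With TMM, with median of ratios and with centring on the median of all genes it was 4. With a threshold on the interval and with the trend on GC content and length removed it was 2. Among all 9094 tested genes, 496 were lower and 280 higher with CPM, 397 and 340 with TMM, and 388 and 358 with median of ratios. Centring on the median of all genes gave 436 and 307, and a threshold on the interval 284 and 294. Removing the trend gave 298 and 337 of 9045 genes, and centring on chromosome medians 428 and 302 of 9086. The median log2 ratio of the enzymes (-0.69) was -0.83 with FPKM, -0.84 with CPM, -0.77 after centring on the median of all genes, -0.82 after centring on chromosome medians and -0.61 with the trend on GC content and length removed. Among all genes, 370 lower and 379 higher became 1366 and 886 at a filter of 1 TPM and 3388 and 1836 without a filter. A filter of 20 TPM left 212 lower, a 1.5-fold threshold gave 955 lower and 1291 higher, and a 3-fold threshold 136 and 104. With FPKM the split was 496 lower and 278 higher. Transcript length and GC content moved with the ratio. Medians ran from 0.32 in the bin of lowest GC to -0.15 in that of highest GC. Across 20 bins of length, with the GC trend already removed, they ran from -0.18 to 0.40. Removing both gave the -0.61 above. No paired analysis was possible because each genotype had 1 library, and no replicate could be left out for the same reason. The depth limits the counting error only (each enzyme had at least 1641 reads per library), and the variation between cultures was not measured.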

Other observations

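Genes of the same lists that lay outside the naming rule and were chosen after their values were seen follow as values. Glul, the glutamine synthetase, was at 109.6 TPM in E14 and 218 TPM in E14-Sox2 TA/WT cells (log2 ratio of 0.99, 95% counting interval 0.95 to 1.03). Shmt1, the cytosolic serine hydroxymethyltransferase, was at 129.8 and 201 TPM (0.63), while its mitochondrial counterpart Shmt2 was at 295 and 195 TPM (-0.60). Mthfd2, a mitochondrial folate enzyme, was at 253 and 132 TPM (-0.94), and Mthfd1, the cytosolic one, at 258 and 304 TPM (0.24), while the mitochondrial Mthfd1l had a log2 ratio of 0.40 and Mthfd2l, under the filter, one of 2.04. Aldh1l2, the mitochondrial formyltetrahydrofolate dehydrogenase, stayed under the filter at 6.59 and 1.03 TPM (log2 ratio of -2.68, -2.95 to -2.42).

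The kinases that phosphorylate eIF2-alpha and so raise the translation of Atf4 had log2 ratios of 0.45 (Eif2ak1), 0.13 (Eif2ak2), -0.15 (Eif2ak3) and 0.24 (Eif2ak4), all within 2-fold, and on the FPKM scale, lower by 0.14, that of Eif2ak2 turns negative. Bcat1 and Bcat2, the cytosolic and mitochondrial aminotransferases of branched-chain amino acids, were at 71.2 and 39.1 TPM (-0.86) and at 100.02 and 149 TPM (0.58), respectively.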
